A study of Mus musculus with 9 samples.

Results

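Chromatin that differed between late and early exposure to ammonium acetate was examined in C2C12 myotubes, multinucleate cells differentiated for 48 h from a mouse myoblast line, by comparing cultures kept in 10 mM ammonium acetate for 24 h with cultures kept in the same dose for 3 h. All 1256 regions in the authors' deposited table of this comparison were taken, with 1 row per region, out of 146047 regions tested. The study measured open chromatin by ATAC-seq, a sequencing assay in which transposase enters accessible DNA and leaves adapters there, in 9 libraries: 3 untreated, 3 at 3 h and 3 at 24 h, all from the same cell line and described by the labels as biological replicates. The untreated cultures carry no time in the labels, and no group received acetate without ammonium, so effects of ammonium, acetate and time in culture cannot be told apart. A positive log2 fold change means that a region was more accessible at 24 h than at 3 h. Because the deposited table holds no values per library, the depth of each library is unknown and the levels of single libraries cannot be printed. The spread between the 3 libraries of a group therefore enters through the authors' edgeR test, and each ± below is an approximate standard error taken from the deposited fold change and F statistic (3 libraries per group).

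Skeletal muscle takes up ammonia when the liver clears too little of it, and excess ammonia is known to perturb protein balance and energy metabolism in muscle cells. Immediate early genes encode transcription factors such as FOS, JUN and EGR1 and are induced within minutes of a stimulus and then repressed. Accessible sites fall into promoters, often rich in CpG dinucleotides and open in most cell types, and distal elements, which are more specific to a cell type or a stimulus.

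The list made up 0.86% of the tested regions. It held 693 regions that were higher at 24 h (0.475% of those tested) and 563 that were lower (0.385%). None of the 1256 reached an edgeR adjusted p below 0.05 (0.0%), whereas all 1256 had an unadjusted p below 0.05, at most 0.00499. The edgeR adjusted p ran from 0.195 to 0.523, and 342 regions were below 0.4. At an adjusted p of 0.523, up to about that share of the calls can be false. By their values, the authors kept regions with an unadjusted p below 0.005 and a change of at least 1.5-fold, the smallest listed being 1.501-fold. At a looser limit, 29 regions had an edgeR adjusted p below 0.25, of which 19 were higher and 10 lower, and 14 were intergenic. The words higher and lower in what follows therefore give the sign of the deposited value, and no single region passed the test after adjustment.

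The promoters that lay inside or across listed regions differed in sequence between the directions, and 6 of them are shown, 2 from higher and 4 from lower regions, to let these sequences be compared. The windows run from 250 bases before to 50 bases after a RefSeq start on GRCm38.p6, in the direction of transcription. Capitals mark matches on either strand to CAGCTG, the E-box that myogenic factors bind, to GGGCGG, the GC box of SP and KLF factors, to TGANTCA, the AP-1 site, or to TATAAA. The gene Actc1 encodes cardiac alpha-actin, which embryonic and regenerating skeletal muscle also uses, and Pkm encodes a pyruvate kinase. Both lay in regions higher at 24 h. The other 4 lay in lower regions: Dll4 encodes a Notch ligand, Nfatc2 a calcineurin-dependent transcription factor, Tsc2 a subunit of the complex that restrains mTORC1, and Igdcc3 a membrane protein of the immunoglobulin superfamily. The listed regions cover 215 bases of the Actc1 window and 137 bases of the Pkm window, and the whole of the others.
Actc1: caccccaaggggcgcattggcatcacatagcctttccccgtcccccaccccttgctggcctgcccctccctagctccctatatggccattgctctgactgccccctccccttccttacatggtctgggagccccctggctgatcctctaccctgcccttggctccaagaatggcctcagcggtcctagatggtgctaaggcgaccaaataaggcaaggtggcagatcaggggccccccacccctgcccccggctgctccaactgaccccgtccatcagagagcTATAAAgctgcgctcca
Pkm: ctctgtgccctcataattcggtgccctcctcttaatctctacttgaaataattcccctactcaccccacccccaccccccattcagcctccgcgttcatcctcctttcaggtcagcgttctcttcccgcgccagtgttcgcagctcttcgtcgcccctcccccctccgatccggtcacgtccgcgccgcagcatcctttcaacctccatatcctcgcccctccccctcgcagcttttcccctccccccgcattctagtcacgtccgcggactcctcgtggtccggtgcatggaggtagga
Dll4: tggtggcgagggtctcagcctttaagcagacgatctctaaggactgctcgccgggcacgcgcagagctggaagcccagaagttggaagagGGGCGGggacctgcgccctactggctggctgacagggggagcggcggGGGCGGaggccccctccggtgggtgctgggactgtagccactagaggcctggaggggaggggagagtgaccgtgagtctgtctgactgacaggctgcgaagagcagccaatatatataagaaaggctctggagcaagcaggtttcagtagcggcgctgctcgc
Nfatc2: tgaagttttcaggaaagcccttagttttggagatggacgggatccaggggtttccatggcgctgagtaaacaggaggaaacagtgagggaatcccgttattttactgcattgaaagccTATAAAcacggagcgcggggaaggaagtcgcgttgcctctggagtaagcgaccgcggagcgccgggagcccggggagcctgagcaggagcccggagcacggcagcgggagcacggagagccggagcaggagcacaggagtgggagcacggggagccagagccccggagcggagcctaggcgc
Tsc2: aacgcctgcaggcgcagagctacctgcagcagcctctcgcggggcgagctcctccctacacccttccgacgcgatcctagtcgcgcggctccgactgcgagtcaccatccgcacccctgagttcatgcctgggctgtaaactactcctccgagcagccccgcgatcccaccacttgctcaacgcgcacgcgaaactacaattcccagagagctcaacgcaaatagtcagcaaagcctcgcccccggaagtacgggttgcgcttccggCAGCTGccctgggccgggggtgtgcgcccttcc
Igdcc3: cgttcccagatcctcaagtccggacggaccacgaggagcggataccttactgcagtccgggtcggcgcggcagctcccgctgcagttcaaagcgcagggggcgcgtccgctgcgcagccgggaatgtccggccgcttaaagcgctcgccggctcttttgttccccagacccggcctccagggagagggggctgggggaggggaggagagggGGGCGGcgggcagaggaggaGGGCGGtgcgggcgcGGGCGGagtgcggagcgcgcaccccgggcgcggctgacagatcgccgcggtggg
The Actc1 window (chr2:114052826-114053125, minus strand) and the Nfatc2 window (chr2:168601608-168601907, minus strand) each held 1 TATAAA. The Dll4 window (chr2:119325534-119325833, plus strand) held 2 GC boxes and the Igdcc3 window (chr9:65140904-65141203, plus strand) held 3. The Tsc2 window (chr17:24632578-24632877, minus strand) held 1 E-box, and the Pkm window (chr9:59656977-59657276, plus strand) held no match to the 4 motifs. CpG dinucleotides numbered 7 in the Actc1 window, 23 in Pkm, 17 in Dll4, 23 in Nfatc2, 29 in Tsc2 and 38 in Igdcc3, against a median of 7 in all 32851 RefSeq windows.

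Over all windows whose start lay inside a listed region, counting each start of a gene separately (70 windows in 59 lower regions and 9 in 8 higher ones, some overlapping), the 70 windows of lower regions had a median of 20 CpG dinucleotides and 61.2% G and C, while the 9 windows of higher regions had 4 and 47.7%, and all 32851 RefSeq windows 7 and 52.7%. The GC box stood in 45 of the 70 windows of lower regions (64.3%), in 1 of the 9 of higher regions and in 35.7% of all windows. CCGGAA, the core bound by ETS factors, was in 25.7% of the windows of lower regions against 14.9% of all windows, and the myogenic E-box was in 25.7% against 16.3%. The AP-1 site was in 1 of the 70 windows of lower regions and 2 of the 9 of higher regions, against 7.81% of all windows. These matches describe the letters in the windows, and a GC-rich window holds more matches to GC-rich motifs by its composition. The RefSeq windows were taken whether accessible or not, and no set of accessible promoters alone was used. The gap between the lower regions and all windows therefore cannot be read as a trait of the lower regions. No sequence outside the promoter windows was used here.

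Regions lower at 24 h lay at promoters more often than regions higher at 24 h, and the gap was smaller among large changes. A promoter, which the authors' annotation defines as the 1 kb before a transcript's start, overlapped 139 of 563 lower regions (24.7%, 95% Clopper-Pearson interval 21.2 to 28.5) and 37 of 693 higher regions (5.34%, 3.79 to 7.28). CpG islands overlapped 75 lower regions (13.3%, 10.6 to 16.4) and 1 higher region (0.144%, 0.00365 to 0.801). Among changes of at least 2-fold, promoters overlapped 14.0% of lower and 6.22% of higher regions, and CpG islands 1.16% of lower regions. Among the promoter regions, 87 of the 139 lower ones touched a CpG island or shore, against 2 of the 37 higher ones. Exons overlapped 168 lower regions (29.8%) and 65 higher regions (9.38%), and 5' UTRs overlapped 89 and 10. The intergenic class took 296 higher regions (42.7%, 39.0 to 46.5) against 141 lower regions (25.04%, 21.5 to 28.8). Neighbouring regions are not independent, and these intervals cover counting error alone. Annotation was given for listed regions only, so the shares over all tested regions are unknown. Whether the lower regions are rich in promoters or the higher ones poor therefore cannot be told.

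**Figure D1:**
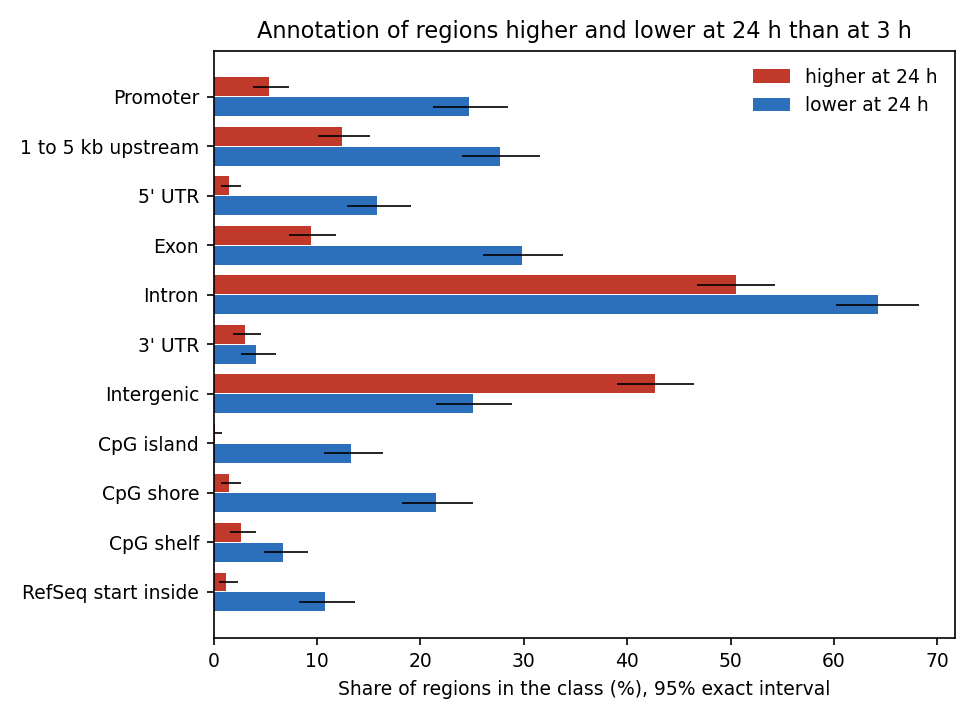
Share of the 693 regions higher at 24 h and the 563 regions lower at 24 h that overlap each annotation class, in percent, with 95% exact binomial intervals. A region can be in several classes. The bottom pair counts regions holding a RefSeq start, out of 667 higher and 549 lower regions on the chromosomes whose starts were given. Promoters, 5' UTRs, exons and CpG islands and shores have longer bars for the lower regions, and intergenic sequence for the higher regions.

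The same split appeared with RefSeq starts in place of the promoter class. A RefSeq start lay inside 59 of 549 lower regions (10.7%) and 8 of 667 higher regions (1.20%), on the chromosomes whose starts were given. The median distance to the nearest start was 12256 bp for lower and 32506 bp for higher regions. Within 1 kb of a start lay 93 lower regions (16.9%) and 16 higher regions (2.40%), and beyond 100 kb lay 40 (7.29%) and 147 (22.04%). Several regions classed as promoter lay at an internal or unnamed transcript rather than at the gene's own start. Of the 37 higher promoter regions, 14 carried no gene symbol on the promoter itself, among them those inside Kif5b, Csnk1d, Lactb2, Cep170 and Pds5b, against 13 of the 139 lower ones.

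**Figure D2:**
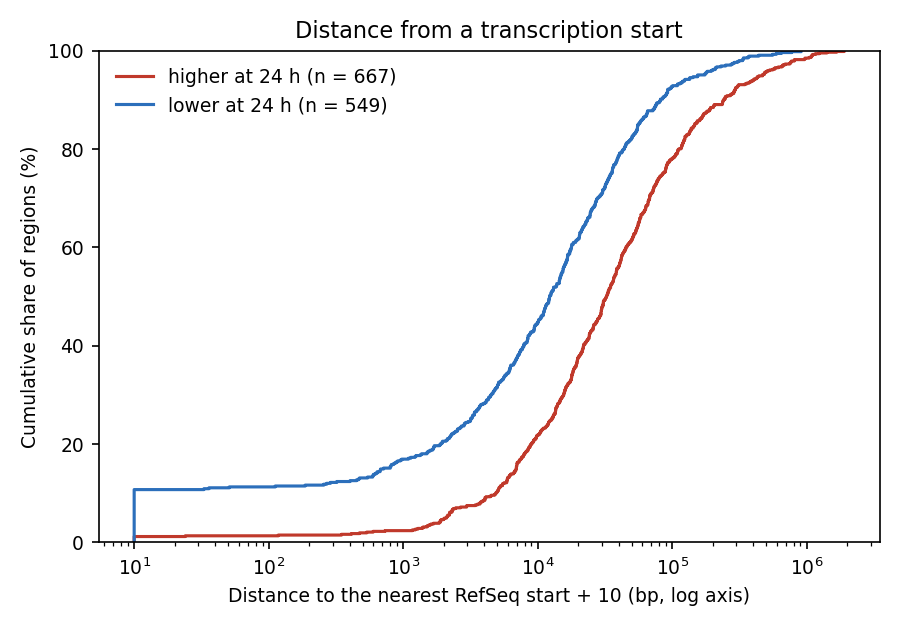
Cumulative share of regions, in percent, by distance to the nearest RefSeq start in bp on a log axis, with 10 added so that regions holding a start can be drawn at 10. The curve of the 549 lower regions starts at 10.7% and runs above that of the 667 higher regions throughout.

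Lower regions were also somewhat wider and more accessible on average. Their median width was 670 bp and their median mean accessibility 2.53 on the log2 CPM scale (log2 of counts scaled to library size), against 562 bp and 2.17 for the higher regions. The size of the change ran the other way, with a median log2 fold change of 0.84 for higher and -0.76 for lower regions. The lower promoter regions had a median accessibility of 2.85, against 2.48 for lower intronic and 2.33 for lower intergenic regions, and a median log2 fold change of -0.71. The share of higher regions varied among chromosomes, from 35.6% of the listed regions of chromosome 7 to 74.6% of those of chromosome 13.

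**Figure D3:**
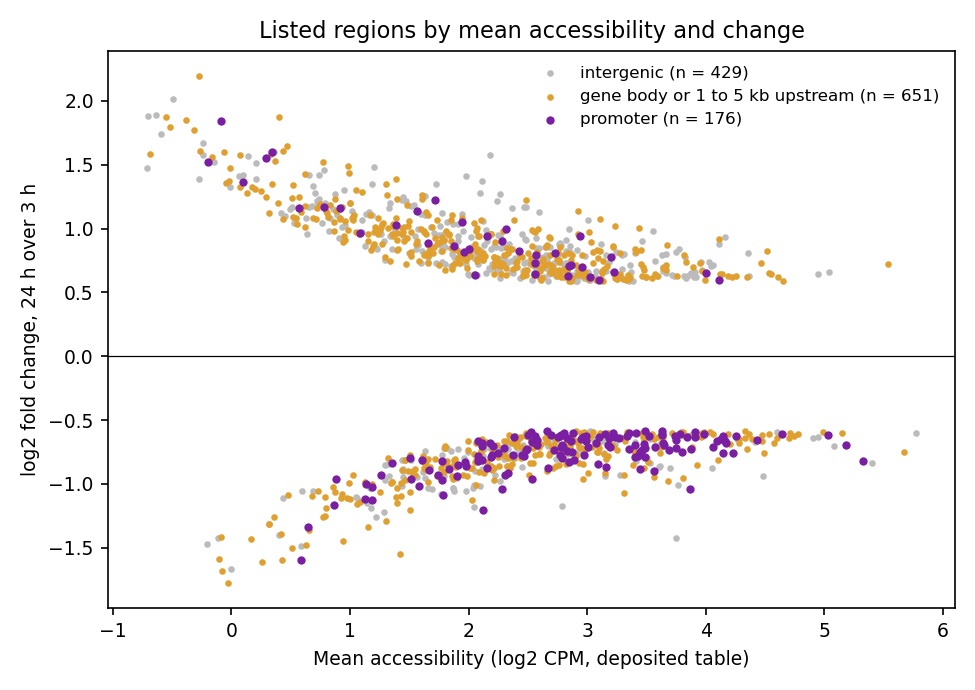
Deposited log2 fold change of 24 h over 3 h against mean accessibility in log2 CPM, 1 point per listed region, coloured by the foremost annotation class. The empty band around 0 is the 1.5-fold limit of the list, weakly accessible regions appear only with large values, and most promoter points lie below 0.

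The region with the smallest p was a promoter of internal transcripts of Hdac5, a class IIa histone deacetylase that represses MEF2 targets in muscle. In the authors' deposited table it had a log2 fold change of -1.04 ± 0.17 (chr11:102201136-102201995, edgeR adjusted p = 0.195). An intron of Col18a1, which encodes the collagen whose C-terminal fragment is endostatin, was lower by nearly the same amount at -1.07 ± 0.18 (chr10:77123900-77124489, edgeR adjusted p = 0.195). Lower values also stood at an exon of Plekha2, an adaptor that binds phosphoinositides (-0.97 ± 0.18), at an intron of Gdpd5, a glycerophosphodiesterase that cleaves GPI anchors (-0.94 ± 0.18), and at an intron of Siva1, a pro-apoptotic p53 target (-0.93 ± 0.18). At these 3 regions the edgeR adjusted p was 0.222. Further down the list came an intron of Chst11, a chondroitin sulfotransferase (-0.96 ± 0.20), a region inside Csk and upstream of some of its transcripts, Csk being the kinase that inhibits SRC (-0.90 ± 0.19), and a promoter of Krt8, an intermediate filament gene (-0.78 ± 0.16), each with an edgeR adjusted p of 0.257.

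Among the regions higher at 24 h that lay at a named gene, the smallest p stood at an intron of Cpne8, a calcium-dependent phospholipid-binding protein, with 1.14 ± 0.19 (chr15:90646806-90647760, edgeR adjusted p = 0.195). Next among named genes came an intron of Nipa1, a magnesium transporter, with 1.08 ± 0.18 (chr7:56010122-56011170, edgeR adjusted p = 0.198). At 2 genes of kinesin transport the deposited values were also positive, 1.22 ± 0.22 at a promoter of an unnamed transcript inside Kif5b, the kinesin-1 heavy chain, and 1.0 ± 0.19 in an intron of Kifap3, the adaptor of kinesin-2. Introns of Ext1, a heparan sulfate polymerase, and Nrg1, a ligand of ERBB receptors that muscle spindles and Schwann cells depend on, had 0.95 ± 0.18 and 0.93 ± 0.19. A promoter of Fnip2, which binds folliculin and AMPK, had 0.95 ± 0.20 (edgeR adjusted p = 0.257).

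The largest folds at named genes stood at weakly accessible regions and carried wide errors, against a median standard error of 0.22 over all 1256 regions. An intronic region of Trpm3, a cation channel gene, had a log2 fold change of 2.19 ± 0.53 at a mean of -0.27 log2 CPM, or 4.58-fold. For an intronic region of Csnk1g3, a casein kinase gene, the deposited value was 1.87 ± 0.51. The most negative value at a named gene was that of a 3' UTR region of Trp53inp1, a p53 target that acts in autophagy, at -1.77 ± 0.51, and a 3' UTR region of Nr2e1, an orphan nuclear receptor, had -1.68 ± 0.47. All 4 had mean accessibility below 0.5 log2 CPM, against a median of 2.34 over all 1256 regions.

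Gene functions were compared through 39 lists, which together hold 4292 genes, of which 185 (4.31%) had a listed region, against 3.08% of 21896 protein-coding genes of the RefSeq table. Among the 743 listed regions with a gene symbol, 396 (53.3%) were lower and the median log2 fold change was -0.60. The members of each list are read against these figures, since a list with near 53.3% of its regions lower shows no lean of its own. Among promoter regions with a gene symbol on the promoter, however, 126 were lower and 23 higher. Lower values are thus usual for a list of mostly promoter regions, and function and region class were not separated. The counts are of regions, so a gene with several regions counts several times.

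Regions near early-response genes were lower at 24 h, and most of them carried no symbol of these genes in the files. By the gene symbols of the files, 1 of 35 immediate early and AP-1 genes had a listed region, the last exon and 3' UTR of Fosb at -0.82 ± 0.24. When genes within 5 kb of a region were counted, 9 genes with 10 regions were found, and all 10 regions were lower, with a median log2 fold change of -0.91. Under the same 5 kb rule, 213 of the 4292 genes on all lists (4.96%) had a region, and 53.7% of the 758 regions near a protein-coding gene were lower. These genes were chosen after their values were seen. The most negative were the regions near Atf3 (-1.50), a stress-induced repressor, and Egr1 (-1.42), a zinc finger factor of the serum response, the latter 2723 bp from the gene. Fos (-1.01), Jun (-0.95) and Junb (-0.73), the subunits of AP-1, had negative values too. The antiproliferative gene Btg2 had a pair of regions at -1.01 and -0.88, Ier2 had -0.86 and Btg1 -0.61. The region near Junb also lies 33 bp from Prdx2, a peroxidase gene. The authors' deposited table of 3 h against untreated, which uses the same 3 h libraries, holds 9 of these 10 regions, with values from 0.90 near Ier2 to 1.76 near Fos.

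Genes of the contractile apparatus leaned higher. The sarcomere and Z disc list had 8 regions at 7 of 62 genes, of which 6 were higher and 2 lower, with a median log2 fold change of 0.79. A pair of regions at or near the start of Actc1 had 1.13 ± 0.32 (chr2:114052677-114053040) and 0.89 ± 0.25 (chr2:114054178-114054484), with edgeR adjusted p of 0.425 and 0.436. Regions annotated to introns of Xirp2, Pdlim3 and Pdlim5, which encode proteins of the Z disc and its links to the membrane, had 1.04 ± 0.30, 0.90 ± 0.24 and 0.62 ± 0.18. The lower regions included a promoter of Tnnt1, the slow skeletal troponin T (-0.71 ± 0.20). Outside that list, 3 regions in Sorbs2, an adaptor of the Z disc, were all higher, between 0.59 and 0.84.

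The myogenic regulators had regions of both signs. Introns of Eya4, a coactivator of homeodomain factors (0.98 ± 0.24 and 0.61 ± 0.18), and of Tead4, a partner of YAP that myoblasts need to differentiate (0.86 ± 0.21), were higher, as were a promoter and an intron of Vgll3, a TEAD cofactor (0.90 and 0.59). The lower members were an intron of Pax7, the factor that marks satellite cells (-0.62 ± 0.19), and an intron of Nfix, which switches embryonic to fetal myogenesis (-0.68 ± 0.19). The list of 46 genes thus had 5 higher and 2 lower regions. Of 16 markers of myoblasts and reserve cells, 2 had listed regions, at Pax7 and Dll1, and both were lower. Fewer unfused cells in the cultures and less open chromatin per nucleus cannot be told apart in bulk libraries, and the part of either in these values was not tested. Fibroblast markers gave 1 higher region, at Fn1 (0.74), and 1 lower, at Twist2 (-0.93), and none of the 15 adipocyte and smooth muscle markers or the 13 endothelial and immune cell markers had a listed region. No level of a muscle marker can be read, since the table holds only regions past its limits.

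In metabolism, few genes had a listed region. By the symbols of the files, 2 of 45 hypoxia and glycolysis genes (4.44%) had one, about the share over all lists (4.31%), and both were higher. The start of Pkm had 0.64 ± 0.20 (chr9:59657140-59657544, edgeR adjusted p = 0.506), and Car9, a carbonic anhydrase induced by hypoxia, had 0.60 in a region over its exons and 3' UTR that is also annotated to Arhgef39. Counting genes within 5 kb added Slc16a3, the lactate exporter MCT4 (1.05), Pfkl, a phosphofructokinase (1.33), and Eno1, an enolase (0.67), so that 5 regions at 5 of 45 genes were all higher, where 213 of the 4292 genes on all lists (4.96%) lay that near. The region near Slc16a3 was the one annotated to Csnk1d. In the list of ammonia, urea cycle and amino acid genes, 3 of 55 had a region: Ampd3, the AMP deaminase that releases ammonia (0.79 ± 0.23), Bckdhb, a subunit of the branched-chain ketoacid dehydrogenase (0.89 ± 0.27), and Got1, the cytosolic aspartate aminotransferase, the lower one (-0.99 ± 0.29). None of the 62 mitochondrial genes, 36 heat shock and oxidative stress genes or 35 genes of the integrated stress response and unfolded protein response carried a listed region by symbol, although Atf3, on the last list, lay within 5 kb of one.

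Signalling genes gave small counts. The YAP, Hippo, Wnt and Notch list had 4 regions at 4 of 63 genes (6.35%), and all 4 were lower. Promoters of Dll1 (-0.65 ± 0.18), a Notch ligand that keeps muscle progenitors undifferentiated, and of Dll4 (-0.71 ± 0.21) were among them. The others were a promoter of Wnt7b (-0.64 ± 0.18), a Wnt ligand, and an intron of Tcf7l1 (-0.63 ± 0.16), a repressor of Wnt targets. All 4 are thus Notch or Wnt genes, and the count says nothing of YAP and Hippo. Regions at Tead4, a partner of YAP, and Vgll3, a TEAD cofactor, were counted with the myogenic regulators and were higher. Promoter regions with a gene symbol were mostly lower over the whole comparison too. In the TGF-beta and BMP list the repressors of SMAD signalling Ski (-1.36 ± 0.40) and Skil (-0.88 ± 0.24), the transducer Smad1 (-1.11 ± 0.35) and the activin subunit Inhbb (-0.80 ± 0.25) were lower. Its higher regions were those of Ltbp1, which stores latent TGF-beta in the matrix (0.97 and 0.60), and Bmpr1a, a BMP receptor (0.75), giving 3 higher and 4 lower (57.1% lower, and 40.0% among regions with a mean of at least 1 log2 CPM). The insulin, AMPK and mTORC1 list had 3 higher regions, at Fnip2 (0.95 and 0.60) and at Rps6kb1, the S6 kinase (1.20 ± 0.36), and 1 lower region at the shared promoter of Tsc2 and Nthl1 (-0.61 ± 0.18). Of the MAP kinase list, Spred2 and Dusp4, which restrain ERK signalling, had -0.87 and -0.77 and Map4k4 had -0.68, whereas Map4k3, which relays amino acid signals to mTORC1, had 1.25.

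The few regions at chromatin remodellers, histone genes and methylation enzymes were lower, while those at acetylation enzymes were split. The chromatin remodelling and histone list had regions at 6 of 135 genes (4.44%), about the share over all lists (4.31%). Its 6 regions all had negative values, with a median of -0.75. They lay at the remodellers Chd6 (-0.84 ± 0.20), Chd2 (-0.81 ± 0.21) and Chd4 (-0.63 ± 0.17), at Arid5b (-0.81 ± 0.24), and at replication-dependent histone genes on chromosome 13, where the deposited values were -0.63 ± 0.17 at H3c2 and H4c2 and -0.69 ± 0.19 at H3c3 and H2bc3. The Chd4 region was a promoter, and the regions at H3c2 and H3c3 held RefSeq starts and together spanned 7249 bp. Promoter regions with a gene symbol were mostly lower over the whole comparison too. Enzymes that methylate histones or demethylate histones and DNA added 3 lower regions at 3 of 46 genes (6.52%), Setd7 (-0.84), Kdm2b (-0.84) and Tet2 (-0.74). Counting genes within 5 kb, 2 of these 46 genes had a region (4.35%), against 4.96% of the genes on all lists. Among histone deacetylases and acetyltransferases, Hdac5 was lower, and introns of the acetyltransferase Kat2b (0.99 ± 0.23) and of Hdac9 (0.73 ± 0.23) were higher. Zinc finger genes named Zfp or Zbtb had 11 higher and 3 lower regions at 10 of 468 genes (2.14%), a share below that over all lists (4.31%). These are regions and not genes. The higher ones include 3 introns of Zfp438 (0.66 to 1.18) and 2 of Zfpm2, a GATA cofactor, and Zbtb7c gave 2 of the 3 lower ones.

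Genes of adhesion and of guidance receptors were mostly lower. Integrins, cadherins and adhesion adaptors had 11 lower and 3 higher regions at 10 of 170 genes (78.6% lower, but 40.0% lower among changes of at least 2-fold). These are regions and not genes, since Tln2 gave 4 of the 11 and Pxn 2. The talin gene Tln2, which links integrins to actin in muscle, carried 4 lower regions (-0.84 to -0.70), the adaptor Pxn (paxillin) had -0.88 and -0.62, Itga5, the fibronectin receptor subunit, had -0.72, and Itgb2 had -0.91. The higher regions were introns of Pcdh15 (1.13), Cdh18 (1.03) and Ctnna3 (1.0). Axon guidance genes had 6 lower regions and 1 higher, at 6 of 78 genes (7.69%). The lower ones lay at the semaphorin genes Sema4a (-0.66 and -0.64) and Sema5b (-0.79), the plexin genes Plxnb1 (-0.87) and Plxnb2 (-0.74), and Slit1 (-1.14). The higher one lay at Neo1, a netrin receptor that promotes myoblast fusion (0.70 ± 0.18). The extracellular matrix list was split, 8 higher against 7 lower, with 66.7% lower among changes of at least 2-fold: Col18a1 (4 regions), Col4a1, Lamb3 and Adamts8 were lower, and Fn1, Emilin2, Efemp1, Ltbp1, Adamts5 and Adamts6 were higher. The enzymes of heparan sulfate were also split, Ext1 (0.95, 0.77 and 0.73) and Hs3st3a1 (1.22 ± 0.26) being higher and Hs6st1 (-0.70) and Sulf1 (-0.67) lower.

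Regulators of the cytoskeleton and of transport differed gene by gene. Arhgap42 (0.72 to 1.03) and Arhgap18 (0.82 and 1.14), which encode GTPase-activating proteins, were higher in all their regions, while Arhgap22, which acts on RAC1, was lower in all 4 (-0.85 to -0.63). The cytoskeletal motors had 4 higher regions, at Kif5b, Kifap3, Myo5a (0.96) and Kif21a (0.71), and 2 lower, at the mitotic kinesin Kif4 (-1.34 ± 0.41) and at Kifc3 (-1.06). Solute carriers had 10 lower and 3 higher regions at 11 of 389 genes (2.83%, against 4.31% over all lists). The lower ones included 3 introns of the sodium, potassium and calcium exchanger Slc24a4 (-0.94 to -0.86). Ion channel genes were even, with 8 higher and 7 lower: both auxiliary subunit regions of Cacna2d1 were higher (0.84 and 0.97), and Cacna1g (-0.84) and Piezo1 (-0.61) were lower. Ubiquitin ligases and deubiquitinases were even as well (6 higher, 7 lower, at 13 of 503 genes or 2.58%). The proteasome subunits Psmc6 (0.79) and Psmd1 (1.10) on that list were higher.

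**Figure D4:**
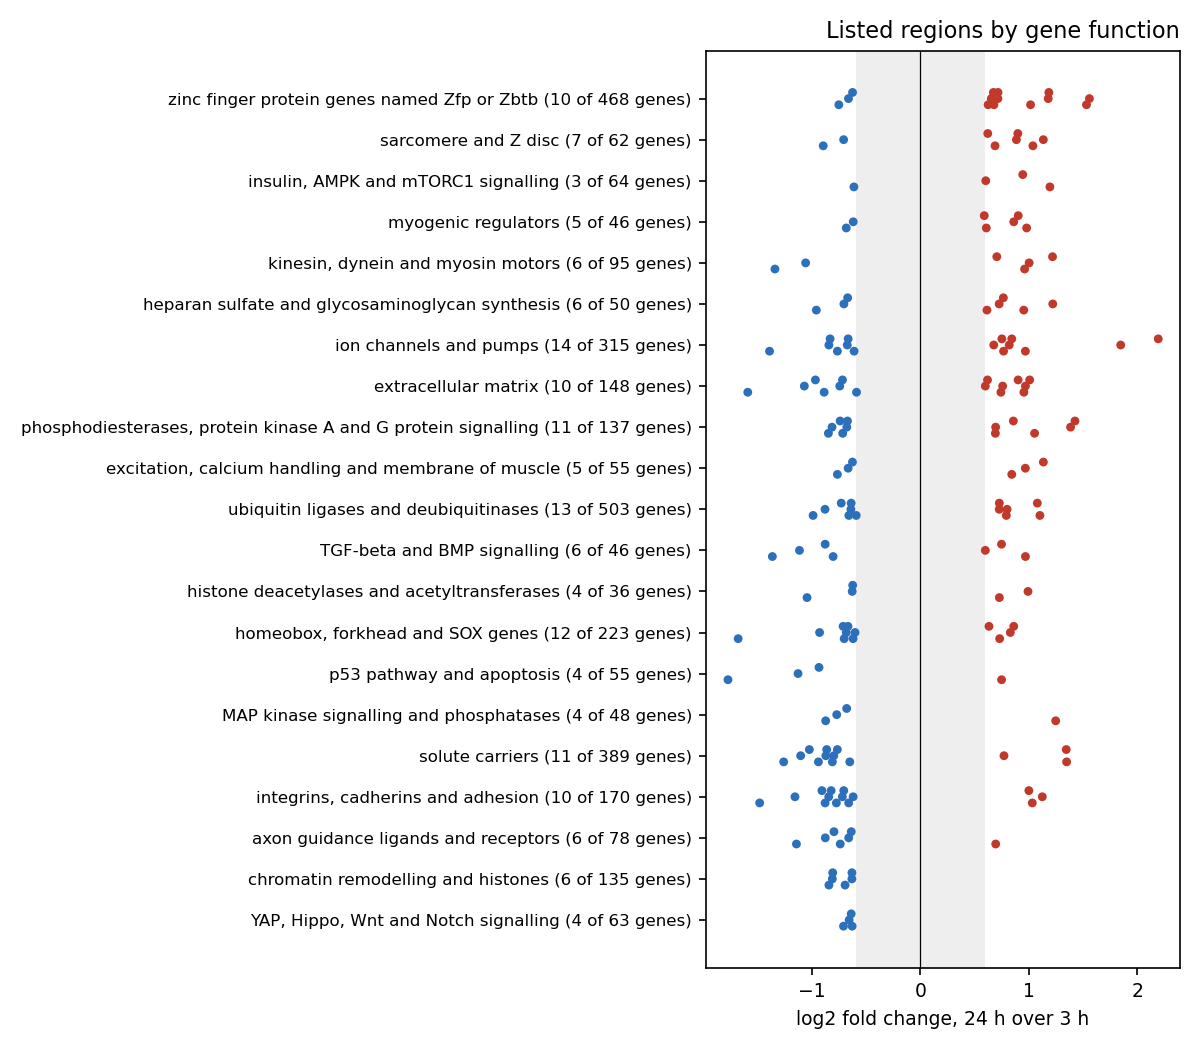
Deposited log2 fold change of 24 h over 3 h, 1 point per listed region, for gene function lists with at least 4 regions, ordered by the share of higher regions; the numbers give genes with a listed region among the genes of the list, and the grey band marks changes below the 1.5-fold limit. The lists at the bottom, YAP, Hippo, Wnt and Notch signalling and chromatin remodelling and histones, have points only below 0. In the first of these the points are of Notch and Wnt genes alone. The zinc finger and sarcomere lists at the top have points mostly above 0.

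The remaining lists gave few regions. The p53 and apoptosis list had 3 lower regions, at Siva1, Trp53inp1 and Bcl2l11 (-1.13 ± 0.24), the last encoding the pro-apoptotic protein BIM, and 1 higher region at Casp12 (0.75). Cell cycle genes had a lower region over the 5' UTR of Cdc25c (-1.0), the phosphatase that starts mitosis, and higher regions at Cdk14 (1.12) and Atr (0.71). Another region, 48 bp from Cdc25c and without its symbol, was higher (0.66). Counting genes within 5 kb, the cell cycle list had 3 higher and 2 lower regions. In the NF-kB and cytokine list, a promoter of Tnfaip2 was higher (0.80) and regions at Irf7 (-0.78) and Jak1 (-0.64) were lower. Autophagy and lysosome genes had higher regions at Plekhm3 (0.98) and Atg10 (0.90) and a lower one at Dnase2a (-1.59). Homeobox, forkhead and SOX genes gave 8 lower and 4 higher regions at 12 of 223 genes, among them Foxa1 (-0.70) and Foxf1 (-0.71), lower, and Meis2 (0.83) and Foxp1 (0.63), higher. The list of growth factor genes had 2 regions, both higher, at Nrg1 and at Flt1 (1.09), a VEGF receptor gene. Outside that list, a region 937 bp from the growth factor gene Pdgfb was lower (-0.95), and a region 3988 bp from Gdnf was higher (0.89). The list of phosphodiesterases, protein kinase A and G protein genes had 6 in each direction. RNA processing genes had 3 regions, translation genes 1, at the mitochondrial ribosomal gene Mrps22 (-0.61), and the muscle excitation and calcium list 3 in each direction.

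Regions at the same gene nearly always shared a sign. Of 57 genes with at least 2 listed regions, 55 had all of them in 1 direction (32 higher, 23 lower), and so did all 13 genes with 3 or more. Overlapping genes that share regions are counted apart, such as Actc1 with A530058N18Rik and C130080G10Rik, and Ogn with Cenpp. Besides those named above, Afap1, an actin filament adaptor, had 3 lower regions (-1.03 to -0.75), Mbp 3 lower, and Tanc2, Ptprq and Cenpp 3 higher each. Grouping neighbours no more than 50 kb apart gave 81 clusters with 185 regions, 72 of the clusters being of 1 sign. The largest, 7 lower regions over 85928 bp (chr3:88436525-88522452), ran from Sema4a to the surroundings of Lmna, the gene of the nuclear lamins A and C, where regions had -0.77, -1.04 and -0.76. The next, 6 lower regions over 106515 bp (chr10:77123900-77230414), began in Col18a1, and the authors' deposited table of 24 h against untreated listed 4 of the 6 as lower too, from -0.87 to -1.33. Neighbouring regions share libraries and often a regulatory domain, so these counts describe the list and are not independent observations.

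The authors' deposited tables against untreated cultures share libraries with the comparison described here, so their values are set side by side and not tested. They list 588 regions at 3 h (0.403% of those tested), of which 1 had an edgeR adjusted p below 0.05 (0.000685%), and 150 at 24 h (0.103%), all below that limit, 67 of them higher (0.0459%) and 83 lower (0.0568%). For regions in both the 3 h table and the list examined here, the 35 lower at 24 h than at 3 h had a median log2 fold change of 0.79 at 3 h against untreated and -0.74 at 24 h against 3 h. The 19 higher ones had -0.77 and 0.83. The value of 24 h against untreated can be summed from both deposited values, and this sum matched the deposited one in the 3 regions held by all 3 tables. The region near Egr1 had 1.48 at 3 h and a summed 0.06 at 24 h, and the region at the Actc1 start had -1.27 and -0.14. The region near Fos had a summed 0.74 at 24 h, after 1.76 at 3 h, and a Btg2 region a summed 0.62. Outside the immediate early genes, a promoter of Por, the reductase that serves cytochrome P450 enzymes, had 0.99 at 3 h and a summed 0.03 at 24 h.

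The 24 h table and the list examined here shared 39 regions higher at 24 h than at 3 h and 42 lower. The median log2 fold change was 0.87 against 3 h and 1.21 against untreated for the 39, and -0.79 and -1.13 for the 42. Every region of the 24 h table had an edgeR adjusted p below 0.05, a stricter limit than that of the list examined here. These medians are therefore not like for like. Of the 1256 regions, 1124 (89.5%) were listed in neither comparison against untreated. Promoters overlapped 6 of the 39 and 3 of the 42. Higher members included Kif5b (1.22 against 3 h, 1.28 against untreated), Nrg1 (0.93 and 1.23), an intron of Fnip2 (0.60 and 1.09), Rtp4, a chaperone of G protein-coupled receptors (1.0 and 1.36), and Foxp1 (0.63 and 1.10). On the lower side were Plekha6 (-0.87 and -1.46), the Arhgap22 promoter region (-0.85 and -1.34), Tenm4, a teneurin (-1.04 and -1.21), Dusp4 (-0.77 and -1.12), Itga5 (-0.72 and -1.04) and Rbfox3, a splicing factor gene (-0.65 and -1.12). The 3 regions in all 3 tables were that of Plekha6, 1 at Gm32328 and 1 without a gene.

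**Figure D5:**
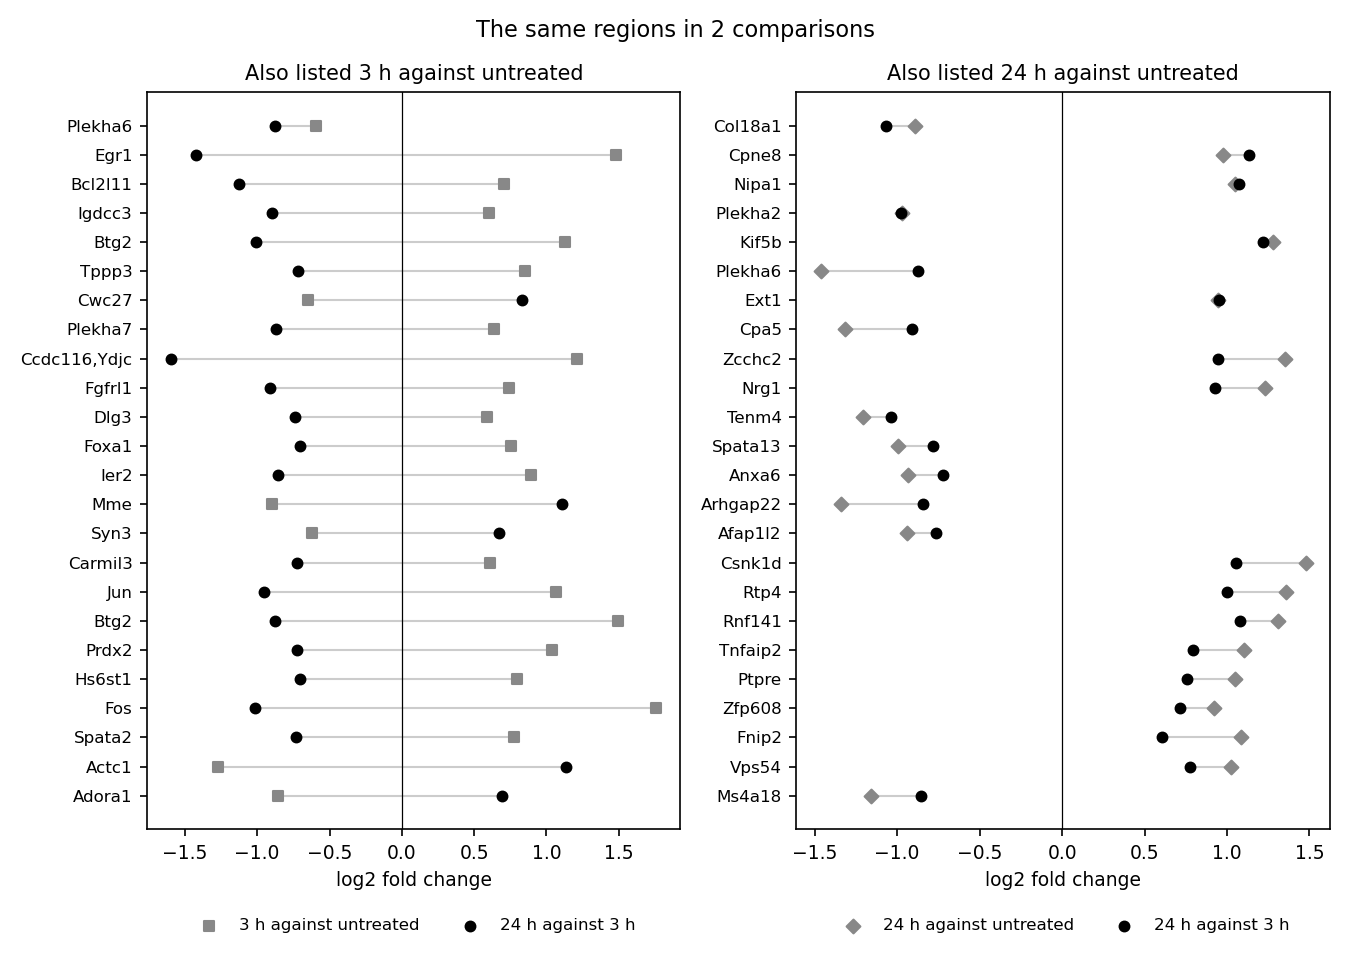
Deposited log2 fold changes of the same regions in 2 comparisons, for 24 regions in each panel, taken in order of p at a named or neighbouring gene, that were also listed for 3 h against untreated (left, grey squares) or 24 h against untreated (right, grey diamonds), with 24 h against 3 h as black circles. The comparisons share libraries; on the left the pair of Egr1 is at 1.48 and -1.42 and that of Actc1 at -1.27 and 1.13, and on the right that of Kif5b is at 1.28 and 1.22.

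Few regions lay near a microRNA gene. Of 1005 hairpins in the RefSeq table, 13 lay within 5 kb of 12 listed regions, of which 3 were higher and 9 lower. The hairpin of miR-133b, a microRNA of skeletal muscle that is transcribed with miR-206, lay 1572 bp from an intergenic region that was higher at 24 h (0.98 ± 0.24, chr1:20684459-20684848, edgeR adjusted p = 0.369). Mir350 lay 1974 bp from a region inside Cep170 that was higher (0.71 ± 0.19), and Mir129-2 lay 3784 bp from a region that was lower (-0.75 ± 0.23). The mature RefSeq sequences are shown for the muscle microRNA and for 1 other entry in each direction, with the seed, bases 2 to 8, in capitals.
mmu-miR-133b-3p: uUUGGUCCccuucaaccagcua
mmu-miR-350-3p: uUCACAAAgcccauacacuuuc
mmu-miR-129-2-3p: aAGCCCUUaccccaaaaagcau
The 3 seeds differ from each other. The levels of these microRNAs were not measured in the data used here.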

How the data were processed

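Nuclei were tagged following Omni-ATAC, according to the labels' protocols. The submitters' processing notes name the build mm10 and, with no role or order, edgeR, MACS2, Bowtie2 2.3.4.1, Trim Galore 0.4.5 with cutadapt 1.15, Picard 2.20.2, bedtools, SAMtools, FastQC and MultiQC. Not given in the sources used here: settings, a shift of cut positions, and pooling before peak calling. For each region, the authors deposited a log2 fold change, a mean log2 CPM, a p-value with its Benjamini-Hochberg adjustment, and an F statistic, a score with no fixed range. The 6818 lines of region and annotation were collapsed to 1256 regions. The number of tested regions was recovered as the adjusted p over the unadjusted p at the first rank of each comparison against untreated, and both gave the same number. Simulated data returned the right number in 20 of 20 runs. Their smallest p was set so that this relation would hold, so those runs are no independent check. The approximate standard error divides the size of the log2 fold change by the root of F.

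Gene symbols are those of the files. A symbol was left out where its RefSeq locus lay more than 100 kb from the region, which removed 8 symbols from 13 regions, 5 of them given to Galnt2 through an annotated intron of 4.38 Mb. Of 730 symbols, 726 matched the RefSeq table (GRCm38.p6). Promoter and microRNA sequences are from RefSeq on the same build, and 40 regions on a chromosome without promoter sequences were left out of those counts. Named regions were, per direction, the 12 with the smallest p at a named gene, 8 promoter regions and the 3 largest folds. To these were added up to 6 regions per list, genes with 3 or more regions, and up to 12 regions also listed against untreated. Genes named beyond this rule (those within 5 kb, other regions listed against untreated and the microRNAs) were chosen after their values were seen. The members and the gene lists were chosen with earlier results of these data known. Some genes the rule names, and 1 gene list, are not reported here. Figures used matplotlib 3.10.9, and values were computed in Python 3.11.15 using pandas 2.3.3, numpy 2.4.6 and scipy 1.17.1.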

Additional observations from a re-analysis of the deposited data

How the results depend on the processing

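No paired analysis was possible because the deposited tables hold no values per library, and for the same reason no replicate could be left out. At an unadjusted p below 0.001 the list kept 218 higher and 142 lower regions (60.6% higher), and at a change of at least 2-fold 193 and 86 (69.2% higher). Genes on any list with a region then numbered 52 and 51, and 45 with promoter regions alone. At 2-fold or more, promoters took 14.0% of lower regions, CpG islands 1.16% and intergenic sequence 34.9%. Counting each gene once, by its smallest p, promoters took 9.21% of higher and 36.2% of lower regions, CpG islands 19.6% of lower ones, and intergenic sequence 0.317% of higher and 0.829% of lower ones, since a region needs a gene to be counted. With RefSeq starts, an alternative chosen after seeing the data, the promoter shares were 1.20% of higher and 10.7% of lower regions. Of 28 lists with at least 3 regions, 5 changed the majority direction under an alternative, among them integrins and adhesion (40.0% lower at 2-fold), extracellular matrix (66.7% lower at 2-fold), TGF-beta and BMP (40.0% lower at a mean log2 CPM of at least 1) and RNA processing (40.0% lower with genes within 5 kb). The causes of these shifts were not tested. Using every symbol as the files give it, chosen after seeing the data, took the genes on lists with a region from 185 to 186. Depth per library is unknown, and weakly accessible regions enter the list only with large changes.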
